A study of Mus musculus with 4 samples.

Results

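The genes for steroid, thyroid hormone and retinoid nuclear receptors were followed across the cell classes of the mouse pituitary and across 2 diets: Esr1, Pgr, Nr3c1, Nr3c2, Thra, Thrb, Rxra, Rxrg and Vdr. They were taken by symbol, and all 9 were found among the 32285 genes of the count matrices. The samples were pituitaries of C57BL/6J males, wild type in genotype, fed for 12 weeks a high fat diet (HFD, 2 libraries) or a control diet (CTRL, 2 libraries), and their cells were profiled one by one. Cells came from enzyme-dissociated glands run on a droplet 3′ assay that counts each captured transcript once by its molecular identifier (UMI). The labels give no ages, no diet composition and no number of glands for a library, so the p-values below measure the spread between libraries, which may be partly technical.

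Nuclear receptors are transcription factors whose activity is set by small lipid-soluble ligands that enter the cell. The glucocorticoid, mineralocorticoid, progesterone and estrogen receptors act mainly as homodimers on palindromic DNA elements, while the thyroid hormone and vitamin D receptors pair with a retinoid X receptor, mainly on direct repeats. In the pituitary these receptors carry the feedback of the adrenal, gonadal and thyroid hormones onto the cells that drive those glands: glucocorticoid restrains Pomc in corticotropes, estradiol drives lactotropes and modulates gonadotropes, and thyroid hormone represses Tshb in thyrotropes.

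The kept cells numbered 5869 in HFD 1, 6920 in HFD 2, 4347 in CTRL 1 and 6824 in CTRL 2, with median UMI counts per cell of 10067, 10949, 17944 and 12378.5, so CTRL 1 was the deepest per cell. HFD 1 shared 3116 cell barcodes with HFD 2 and 1423 with CTRL 2, where the other pairs of libraries shared 14 to 22. The copy with the fewer UMIs held a median of 5.58% of the UMIs of the HFD 2 cell (3104 copies in HFD 1), 2.87% of those of the CTRL 2 cell (1011 copies in HFD 1) or 2.52% of those of the HFD 1 cell (399 copies in CTRL 2). Copies with at least 3-fold fewer UMIs were removed, and each test was also run with them kept. Among 199 receptor levels resting on 50 or more UMIs, keeping the copies moved the level by a median of 0.0328% and by at most 10.3%. Cells were clustered without the 9 receptors and named by marker genes as "like" a type. In 10 classes every library had at least 30 cells, and these were tested: 8706 somatotrope-like, 5121 lactotrope-like, 2313 corticotrope-like, 1719 melanotrope-like, 1343 stem-like, 1141 endothelial-like, 992 gonadotrope-like, 655 thyrotrope-like, 448 mesenchymal-like and 518 macrophage-like cells. A level is the gene's UMIs summed over a class in a library, per 1000000 UMIs of that class and library (CPM). Because one hormone can fill a large share of a cell's UMIs, CPM also moves with that share. The summed somatotrope markers, Gh among them, were 349940 and 379790 CPM in the somatotrope-like cells of HFD 1 and HFD 2, against 440680 and 381790 CPM in CTRL 1 and CTRL 2. The same markers summed to 4340 and 9042 CPM in corticotrope-like cells of HFD 1 and HFD 2, against 15227 and 8503 CPM in those of CTRL 1 and CTRL 2, so low levels of a class's own genes were counted in other classes.

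**Figure D1:**
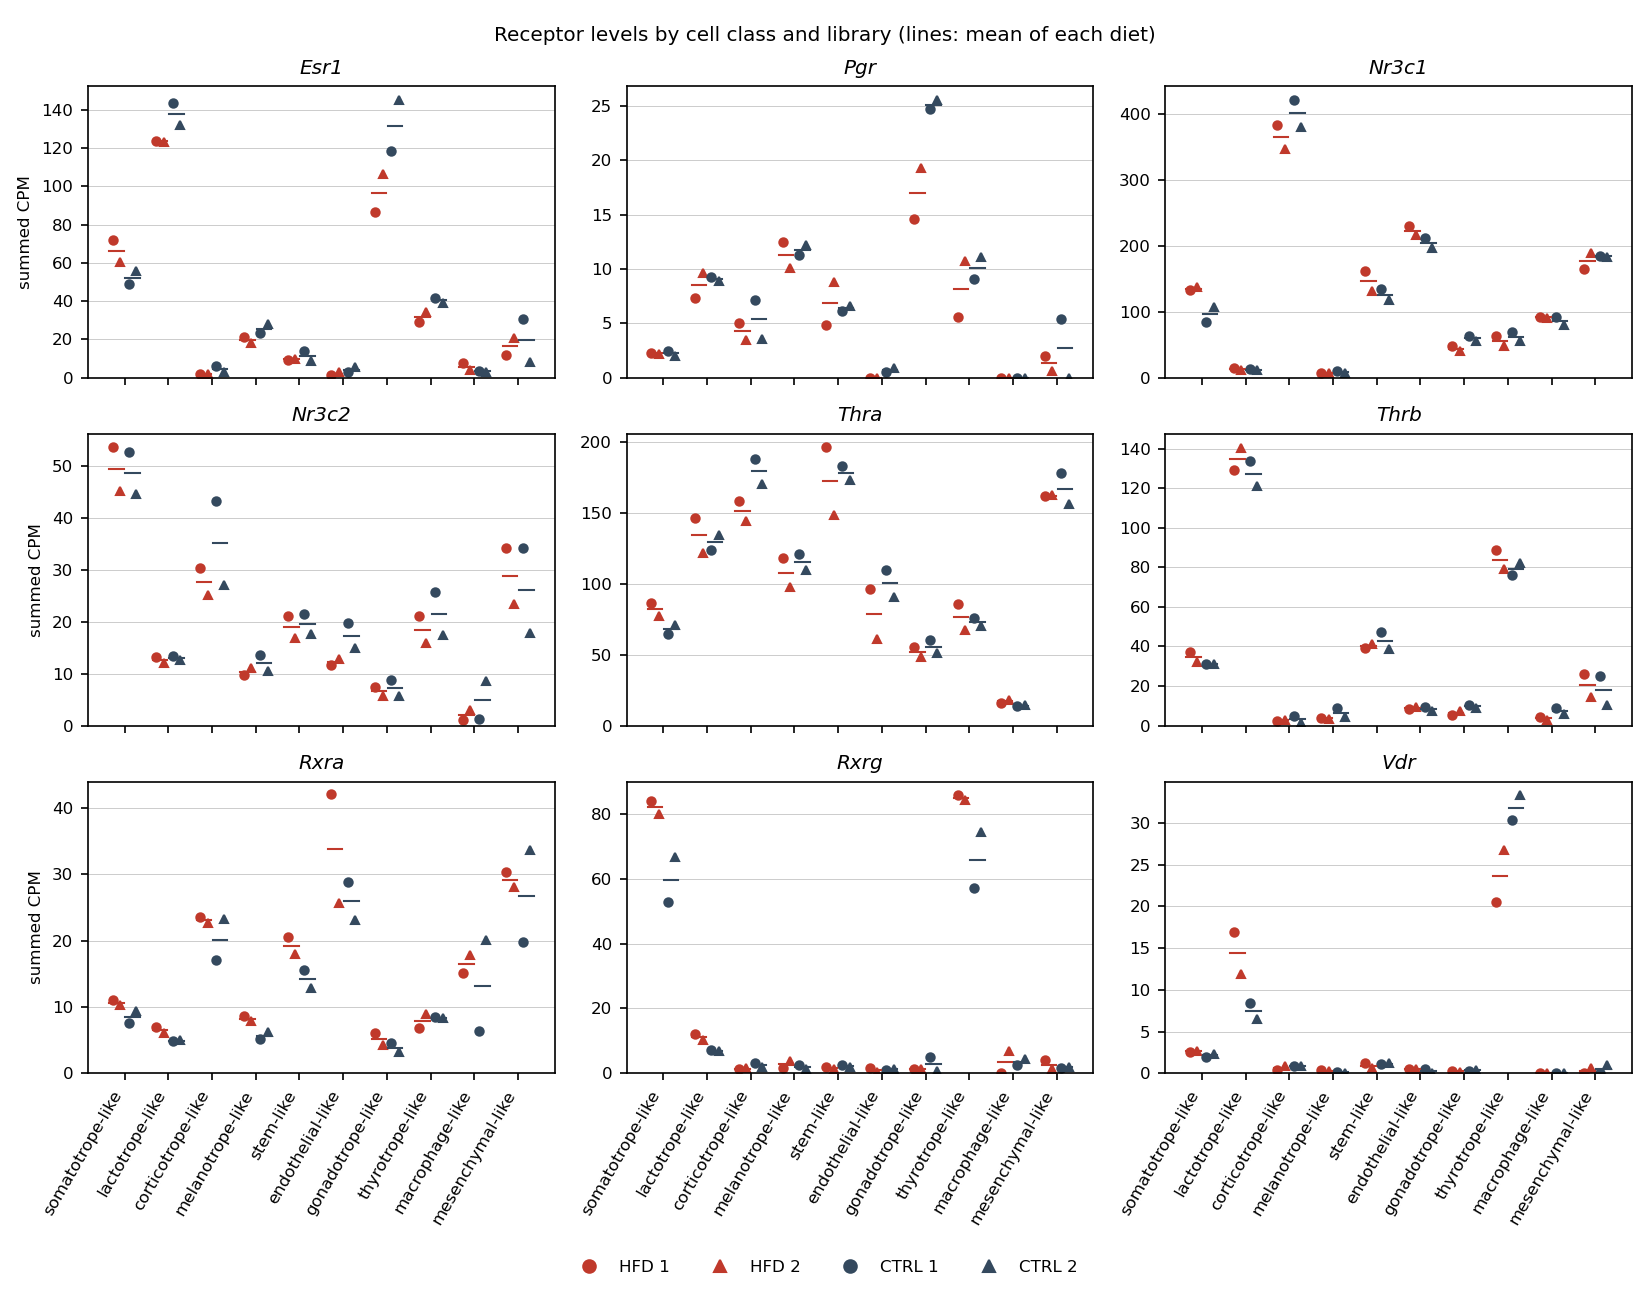
Summed CPM of each receptor (vertical axes, linear, each from 0) in the 10 tested classes; points are libraries, HFD left of CTRL in each class, and short lines are the mean of each diet. Vdr and Rxrg stand in few classes, Thra in nearly all, and the points of the diets interleave in most class columns.

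The steroid receptors divided the gland by class. Nr3c1, the glucocorticoid receptor (chr18:39410545-39519421, minus strand, GRCm38), was highest in corticotrope-like cells, with 382.8 and 346.3 CPM in HFD 1 and HFD 2 and 421.6 and 380.4 CPM in CTRL 1 and CTRL 2. It was lowest in melanotrope-like cells, the other Pomc-expressing class, with 6.8 and 6.84 CPM in HFD 1 and HFD 2 and 10.6 and 7.87 CPM in CTRL 1 and CTRL 2. No library overlapped between these classes, and the mean over the 4 libraries was 47.7 times as high in the corticotrope-like class. Between them stood endothelial-like (214 ± 13.7 CPM, SD over 4 libraries), mesenchymal-like (181 ± 10.6), stem-like (136.6 ± 18.6), somatotrope-like (115.5 ± 24.4), macrophage-like (89 ± 5.86), thyrotrope-like (58.9 ± 9.39), gonadotrope-like (52.1 ± 10) and lactotrope-like cells (13 ± 1.63). The libraries of stem-like, somatotrope-like and macrophage-like cells ran into each other, as did those of thyrotrope-like and gonadotrope-like cells, while every other neighbour in that order was separated. Thinned to 2000 UMIs for each cell, so that depth was equal, 51.9% and 48.6% of corticotrope-like cells of HFD 1 and HFD 2 held a UMI of Nr3c1, and 54.6% and 52.7% of those of CTRL 1 and CTRL 2. In melanotrope-like cells the thinned shares were 1.08% and 2.15% in HFD 1 and HFD 2 and 1.52% and 1.16% in CTRL 1 and CTRL 2, the lowest of the tested classes in level.

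Nr3c2, the mineralocorticoid receptor (chr8:76899442-77245012, plus strand), which binds corticosteroids with high affinity, followed another order. It was highest in somatotrope-like cells, at 53.6 and 45.2 CPM in HFD 1 and HFD 2 and 52.7 and 44.7 CPM in CTRL 1 and CTRL 2. Corticotrope-like cells came next with 31.5 ± 8.13 CPM over the 4 libraries, below every somatotrope-like library. From corticotrope-like down to melanotrope-like cells (11.2 ± 1.73 CPM) each class overlapped the next, and gonadotrope-like (6.94 ± 1.48 CPM) and macrophage-like cells (3.48 ± 3.51 CPM) were the lowest. An opposite-strand gene, Gm10649, overlaps an exon of Nr3c2 and reached at most 5.7 CPM as a class mean; whether the authors' counting used strand is not given in the sources used here.

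Esr1, the estrogen receptor alpha gene (chr10:4611593-5005614, plus strand), was high in lactotrope-like cells, with 123.8 and 123 CPM in HFD 1 and HFD 2 and 143.7 and 131.9 CPM in CTRL 1 and CTRL 2. Gonadotrope-like cells held 86.5 and 106.5 CPM in HFD 1 and HFD 2 and 118.2 and 145.2 CPM in CTRL 1 and CTRL 2. The libraries of these classes overlapped, and both lay above somatotrope-like (59.1 ± 9.65 CPM over the 4 libraries) and thyrotrope-like cells (36.1 ± 5.59 CPM). Endothelial-like and corticotrope-like cells were the lowest, at 3.25 ± 1.6 and 3.33 ± 2.05 CPM. At 2000 UMIs for each cell, 22.5% and 23.7% of lactotrope-like cells of HFD 1 and HFD 2 and 25.5% and 24.1% of those of CTRL 1 and CTRL 2 held a UMI of Esr1. In endothelial-like cells, the lowest class, these shares were 0.36% and 0% in HFD 1 and HFD 2 and 0.49% and 0.282% in CTRL 1 and CTRL 2.

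Pgr, the progesterone receptor gene (chr9:8899833-8968611, plus strand) and itself a target of estrogen receptors, was sparse. Its highest class was gonadotrope-like, where progesterone acts on gonadotropin release, with 14.6 and 19.3 CPM in HFD 1 and HFD 2 and 24.7 and 25.5 CPM in CTRL 1 and CTRL 2. Every gonadotrope-like library stood above the melanotrope-like libraries (11.5 ± 1.08 CPM over 4 libraries), which overlapped thyrotrope-like ones (9.12 ± 2.51 CPM). These in turn overlapped lactotrope-like libraries (8.79 ± 1.03 CPM), which all lay below the melanotrope-like ones. No UMI of Pgr was counted in macrophage-like cells, where 3 counts would have given 2.98 to 4.3 CPM in single libraries.

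The thyroid hormone receptors differed in breadth. Thra (chr11:98740638-98769006, plus strand), which encodes the receptor alpha isoforms, was present in all 10 classes. It was highest in stem-like cells, at 196.6 and 148.3 CPM in HFD 1 and HFD 2 and 183.3 and 173.4 CPM in CTRL 1 and CTRL 2. Corticotrope-like (165.4 ± 18.6 CPM) and mesenchymal-like cells (164.5 ± 9.48 CPM) overlapped them, and only macrophage-like cells were far lower (15.6 ± 1.83 CPM). Thra shares exon sequence with the opposite-strand gene Nr1d1, which encodes the circadian repressor REV-ERB alpha. Nr1d1 had its highest class mean, 164.1 CPM, in the stem-like class as well, so without stated strand use the Thra level is uncertain.

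Thrb, the receptor beta gene (chr14:17660261-18038090, plus strand), whose beta2 isoform carries thyroid hormone feedback in thyrotropes, was steeper. Lactotrope-like cells were the highest, with 129.2 and 140.6 CPM in HFD 1 and HFD 2 and 133.8 and 121 CPM in CTRL 1 and CTRL 2. Thyrotrope-like cells held 88.7 and 79 CPM in HFD 1 and HFD 2 and 76.4 and 82.4 CPM in CTRL 1 and CTRL 2. All lactotrope-like libraries were above all thyrotrope-like ones, and these above stem-like (41.6 ± 3.8 CPM), then somatotrope-like (33 ± 2.95 CPM), then mesenchymal-like cells (19.2 ± 7.76 CPM). Corticotrope-like cells, among the highest for Thra, were the lowest for Thrb at 2.94 ± 1.45 CPM. The counts are of 3′ ends and do not tell the beta isoforms apart.

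The retinoid X receptors, the shared dimer partners, differed in where they were found. Rxra (chr2:27676440-27762957, plus strand) was low everywhere and highest in endothelial-like cells, at 42 and 25.6 CPM in HFD 1 and HFD 2 and 28.8 and 23.1 CPM in CTRL 1 and CTRL 2, overlapping mesenchymal-like (28 ± 5.94 CPM) and corticotrope-like cells (21.6 ± 3.03 CPM). Every neighbouring pair of classes overlapped for Rxra, so its order is not resolved step by step. Without HFD 1, or without CTRL 1, mesenchymal-like cells were its highest class.

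Rxrg (chr1:167598384-167639623, plus strand), the gamma form, has been linked in mice to thyrotrope function. Thyrotrope-like cells held 85.6 and 84.2 CPM in HFD 1 and HFD 2, against 57 and 74.4 CPM in CTRL 1 and CTRL 2. Somatotrope-like cells held 83.9 and 79.9 CPM in HFD 1 and HFD 2, against 52.8 and 66.6 CPM in CTRL 1 and CTRL 2. These classes overlapped each other, and in each the HFD libraries were both above the CTRL libraries. Lactotrope-like cells followed with 12.1 and 10.2 CPM in HFD 1 and HFD 2 and 7.34 and 6.76 CPM in CTRL 1 and CTRL 2, and the other 7 classes averaged between 1.14 and 3.44 CPM. Rxrg was thus carried by the thyrotrope-like and somatotrope-like classes, 65.8 times as high on average in thyrotrope-like as in endothelial-like cells.

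Vdr, the vitamin D receptor gene (chr15:97854425-97910630, minus strand), which binds DNA mainly as a partner of a retinoid X receptor, was the narrowest. Thyrotrope-like cells held 20.5 and 26.7 CPM in HFD 1 and HFD 2, against 30.3 and 33.3 CPM in CTRL 1 and CTRL 2. Lactotrope-like cells held 16.9 and 11.9 CPM in HFD 1 and HFD 2, against 8.44 and 6.46 CPM in CTRL 1 and CTRL 2. The thyrotrope-like libraries all exceeded the lactotrope-like ones. Somatotrope-like cells (2.38 ± 0.308 CPM) and the other 7 classes (0 to 1.06 CPM as means) were near zero, and no UMI was counted in macrophage-like cells, where 3 counts would have given 2.98 to 4.3 CPM.

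Vdr was the one receptor to pass the edgeR diet test in a class, close to the threshold, and it did not pass by DESeq2. In lactotrope-like cells it rose in HFD, with 14.4 ± 3.51 CPM in HFD and 7.45 ± 1.4 CPM in CTRL (SD, n = 2 each), a log2 difference of 0.91 (SE 0.19, edgeR quasi-likelihood test, adjusted p = 0.0471). These sums rest on 219 and 158 UMIs in HFD 1 and HFD 2 and 138 and 148 UMIs in CTRL 1 and CTRL 2. Of all 13711 genes tested in the class, 1.1% passed, a share that was 0.187% without CTRL 1, 0.172% without CTRL 2 and 3.1% without HFD 2. At 2000 UMIs for each cell, 3.57% and 3.05% of lactotrope-like cells of HFD 1 and HFD 2 held a UMI of Vdr, against 1.66% and 1.16% in CTRL 1 and CTRL 2. Counting error alone gave exact 95% binomial intervals of 2.61% to 4.77% and 2.12% to 4.23% in HFD 1 and HFD 2, against 0.934% to 2.73% and 0.711% to 1.79% in CTRL 1 and CTRL 2. Without thinning the shares were 13.7% and 11.8% in HFD 1 and HFD 2 and 12.4% and 6.73% in CTRL 1 and CTRL 2, and here the median depth was 10078 and 11306 UMIs in HFD 1 and HFD 2 and 17096 and 12594 UMIs in CTRL 1 and CTRL 2. The unthinned shares therefore overlapped between the diets and the thinned ones did not, though the thinned interval of CTRL 1 overlapped those of HFD 1 and HFD 2. In melanotrope-like cells, which showed almost none of the gene, the unthinned shares were 0.526% and 0.602% in HFD 1 and HFD 2 and 0.304% and 0.115% in CTRL 1 and CTRL 2, at median depths of 13606 and 17827 UMIs in HFD 1 and HFD 2 and 19714 and 13684 UMIs in CTRL 1 and CTRL 2.

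The rise stood close to its threshold. The adjusted p of Vdr in lactotrope-like cells was 0.0583 by DESeq2, 0.051 with stricter cell filters, 0.11 without CTRL 1, 0.446 without CTRL 2 and 0.0897 without HFD 1, and the log2 difference lay between 0.68 and 1.12. Lactotrope-like HFD 1 cells also had the lowest sum of lactotrope markers, 145580 CPM, beside 214910 in HFD 2, 242380 in CTRL 1 and 204820 in CTRL 2; the part of this in the Vdr difference was not tested. Over the class both HFD libraries were above both CTRL libraries for Vdr, as for 26.8% of all genes tested there. Both lactotrope-like clusters, which come from the same libraries, also had higher Vdr in both HFD libraries. The Prl-led cluster held 15.5 and 11.2 CPM in HFD 1 and HFD 2, against 8.01 and 5.74 CPM in CTRL 1 and CTRL 2. The Gal-led cluster held 23.2 and 16 CPM in HFD 1 and HFD 2, against 10.2 and 8.73 CPM in CTRL 1 and CTRL 2.

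**Figure D2:**
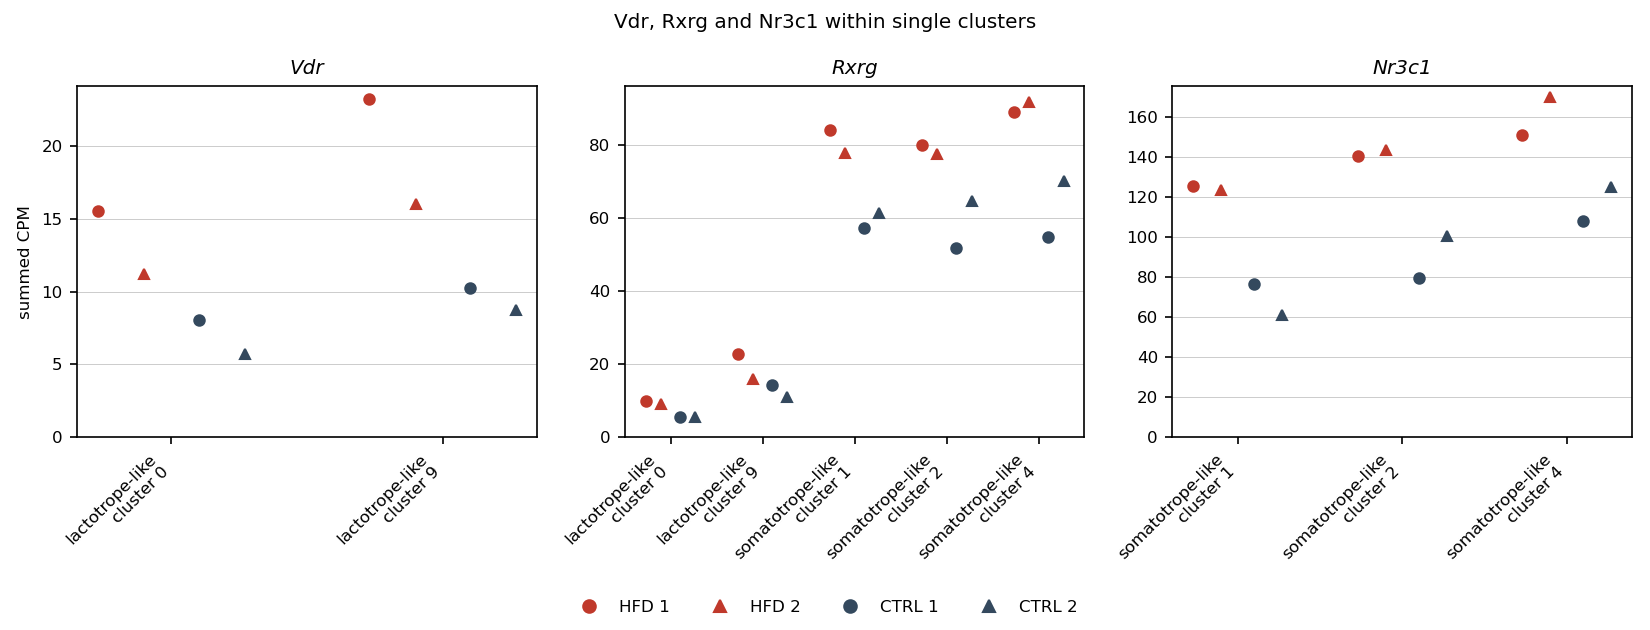
Summed CPM (vertical axes, linear, each from 0) of Vdr in lactotrope-like clusters, Rxrg in lactotrope-like and somatotrope-like clusters and Nr3c1 in somatotrope-like clusters; points are libraries, HFD left of CTRL. Both HFD points lie above both CTRL points in every cluster shown, for Vdr in cluster 0 at 15.5 and 11.2 CPM in HFD against 8.01 and 5.74 CPM in CTRL. Over whole classes this held for 26.8% of lactotrope-like and 44.6% of somatotrope-like genes, and the clusters share the same libraries.

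Rxrg was higher in both HFD libraries in its 3 leading classes, without passing the test in any. Of its 6 tested classes, 2 others had both HFD libraries below both CTRL libraries, at class means of at most 3.44 CPM. The share of all genes that did so in those 2 classes is not given here. For Rxrg the log2 difference was 0.42 in the thyrotrope-like class (SE 0.14, adjusted p = 0.429), 0.31 in somatotrope-like cells (SE 0.09, adjusted p = 0.179) and 0.61 in lactotrope-like cells (SE 0.16, adjusted p = 0.123; named after its values were seen). Of all genes tested, both HFD libraries were above both CTRL libraries in 14% of those in thyrotrope-like, 44.6% of those in somatotrope-like and 26.8% of those in lactotrope-like cells. A higher CPM in both HFD libraries was thus common among somatotrope-like genes. Within each somatotrope-like cluster the order held: cluster 1 had 84.2 and 77.7 CPM in HFD 1 and HFD 2 and 57.3 and 61.3 CPM in CTRL 1 and CTRL 2, cluster 2 had 80 and 77.6 CPM in HFD against 51.7 and 64.7 CPM in CTRL, and cluster 4 had 89.1 and 91.9 CPM in HFD against 54.8 and 70.1 CPM in CTRL. Cluster 1 held 1448 and 1542 cells of HFD 1 and HFD 2 but 189 and 208 of CTRL 1 and CTRL 2, so different clusters made up most of this class in the diets. Rxrg passed in lactotrope-like cells when no filter on low counts was used (adjusted p = 0.0235, with 2.66% of all genes called) and in thyrotrope-like cells without CTRL 2 (adjusted p = 0.0175, with 1.29% of all genes called).

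The promoter windows of Vdr and Rxrg, the receptors higher in both HFD libraries of the lactotrope-like class with the largest log2 differences there, follow. They come from RefSeq (GRCm38.p6) and run from 250 bases before to 50 bases after an annotated start; 7 of the 9 receptors have 11 such windows between them, and Nr3c1 and Thra are not among the 7. Each is printed 5′ to 3′ on the strand of its gene, with capitals for the hexamer AGGTCA, the core that retinoid X, thyroid hormone and vitamin D receptors recognise, searched on both strands. The Vdr window is chr15:97908247-97908546 (minus strand), and the Rxrg windows are chr1:167598112-167598411 and chr1:167618015-167618314 (plus strand).
Vdr: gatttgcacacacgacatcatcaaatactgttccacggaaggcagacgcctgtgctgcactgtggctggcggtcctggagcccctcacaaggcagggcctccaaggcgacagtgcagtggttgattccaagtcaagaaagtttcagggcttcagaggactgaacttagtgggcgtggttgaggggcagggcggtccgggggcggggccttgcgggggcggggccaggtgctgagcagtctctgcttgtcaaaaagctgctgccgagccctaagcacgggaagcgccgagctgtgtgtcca
Rxrg, upstream window: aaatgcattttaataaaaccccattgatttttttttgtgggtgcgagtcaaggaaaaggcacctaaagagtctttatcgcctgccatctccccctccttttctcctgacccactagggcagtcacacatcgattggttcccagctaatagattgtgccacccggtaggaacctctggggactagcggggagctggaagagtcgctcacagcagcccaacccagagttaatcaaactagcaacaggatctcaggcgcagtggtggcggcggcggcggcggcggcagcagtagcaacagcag
Rxrg, downstream window: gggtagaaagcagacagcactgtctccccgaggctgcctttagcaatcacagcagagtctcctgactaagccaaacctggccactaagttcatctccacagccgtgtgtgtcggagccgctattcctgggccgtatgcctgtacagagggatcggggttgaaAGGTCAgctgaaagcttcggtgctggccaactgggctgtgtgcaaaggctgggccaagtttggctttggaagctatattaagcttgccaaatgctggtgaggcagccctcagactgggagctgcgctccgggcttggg
The hexamer occurs once, from base 163 of the downstream Rxrg window, and in neither of the other windows shown. Among the 11 windows it occurs in 3, those of Rxra, Rxrg and Thrb, and among all 32851 windows of the table in 16.3%. A match describes these letters and is not a binding site.

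Nr3c1 was higher in HFD in somatotrope-like cells, at 132.8 and 137.3 CPM in HFD 1 and HFD 2, against 84.8 and 107.2 CPM in CTRL 1 and CTRL 2, and did not pass (log2 difference 0.35, SE 0.10, adjusted p = 0.171; named after its values were seen). Both HFD libraries were above both CTRL libraries in all 3 somatotrope-like clusters, in a class where this held for 44.6% of genes. The hemoglobin and other red blood cell markers, RNA of another cell type, also ran with diet in this class, with 1165 and 1901 CPM in HFD 1 and HFD 2 and 532 and 82 CPM in CTRL 1 and CTRL 2; their part in the receptor values was not tested. In corticotrope-like cells, its highest class, Nr3c1 had a log2 difference of -0.06 (SE 0.11, adjusted p = 0.897), and in endothelial-like cells of 0.14 (SE 0.14, adjusted p = 1.00). The libraries of the diets overlapped in corticotrope-like cells; in endothelial-like cells both HFD libraries were higher, as for 11.8% of genes there. Red blood cell markers summed to 7776 and 10239 CPM in endothelial-like cells of HFD 1 and HFD 2, against 127 and 57.1 CPM in CTRL 1 and CTRL 2, and their part was not tested.

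In gonadotrope-like cells Esr1, Pgr and Nr3c1 all had lower values in both HFD libraries, as did 40.2% of all genes tested there. Esr1 had 96.5 ± 14.2 CPM in HFD and 131.7 ± 19.1 CPM in CTRL (log2 difference -0.30, SE 0.13, adjusted p = 0.213). Pgr had 17 ± 3.37 CPM in HFD and 25.1 ± 0.61 CPM in CTRL (log2 difference -0.40, SE 0.16, adjusted p = 0.204). Neither passed, and Esr1 came under the threshold only without CTRL 1 (adjusted p = 0.0495), a fit that called 4.99% of all genes in the class, against 1.17% with all libraries. The summed gonadotrope markers, with Cga, were 202410 and 198650 CPM in HFD 1 and HFD 2, against 148600 and 169000 CPM in CTRL 1 and CTRL 2; their part in these values was not tested.

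The remaining differences in the leading classes did not pass. For Esr1 the lactotrope-like log2 difference was -0.21 (SE 0.10, adjusted p = 0.479), with both HFD libraries below both CTRL libraries, as for 13.1% of genes there. Pgr in melanotrope-like cells had -0.01 (SE 0.20), Nr3c2 had -0.14 (SE 0.13) in somatotrope-like and -0.26 (SE 0.21) in corticotrope-like cells, and Thra had -0.07 (SE 0.15) in stem-like and -0.17 (SE 0.11) in corticotrope-like cells. Thrb had log2 differences of 0.03 (SE 0.11) in lactotrope-like and 0.11 (SE 0.13) in thyrotrope-like cells, and Rxra of 0.41 (SE 0.26) in endothelial-like and 0.05 (SE 0.36) in mesenchymal-like cells. For Vdr the thyrotrope-like difference was -0.33 (SE 0.19, adjusted p = 0.751), with both HFD libraries lower, as for 22.7% of genes there. The adjusted p of these ranged from 0.479 to 1.00.

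**Figure D3:**
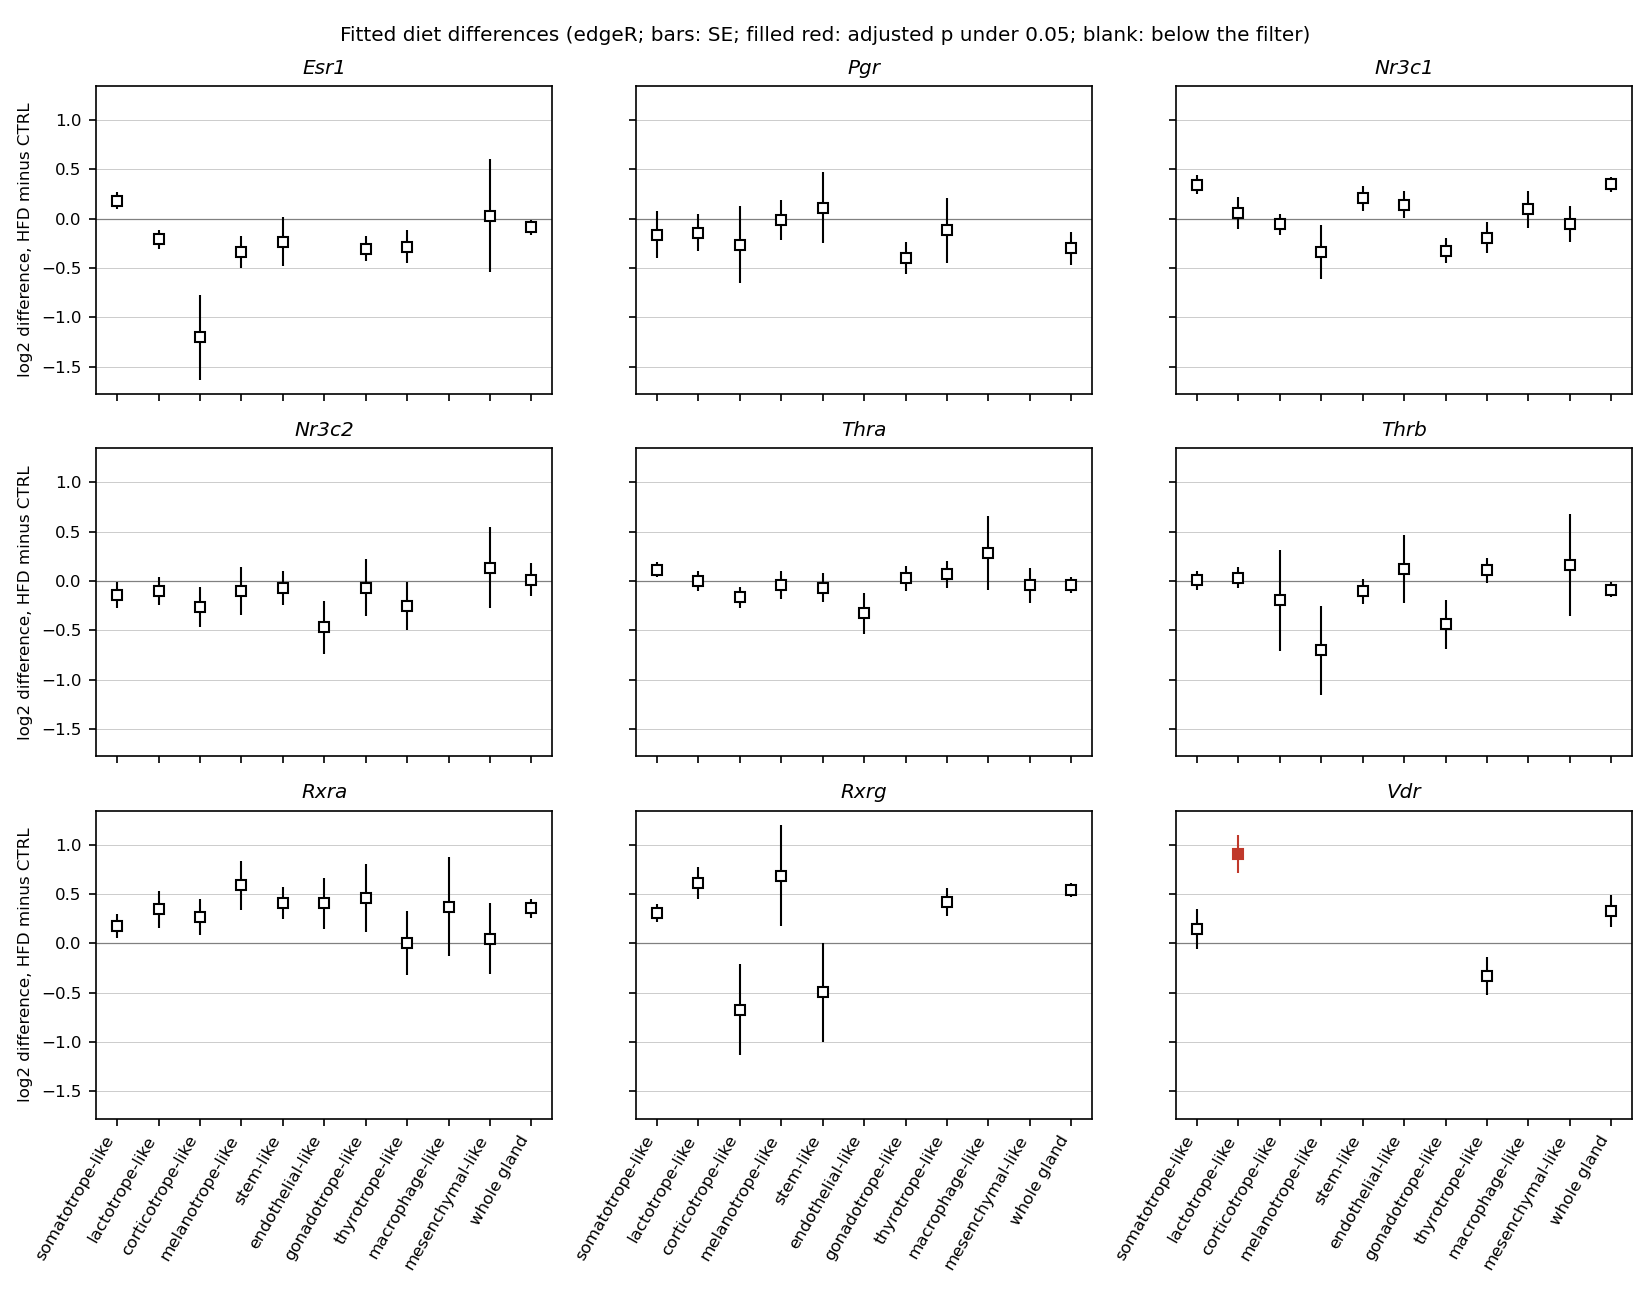
Fitted log2 difference, HFD minus CTRL (vertical axes, shared), of each receptor in the tested classes and the whole gland; squares are edgeR estimates, bars are 1 SE, filled red marks an adjusted p under 0.05 and gaps are classes below the filter on low counts. Vdr in lactotrope-like cells, at 0.91, is the one filled square.

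Of the 90 pairs of a receptor and a class, 72 passed the filter on low counts and were tested. One pair, 1.39% of them, had an adjusted p under 0.05, beside 0.34% of the 116010 pairs of any gene and class. At an unadjusted p under 0.05 there were 11 pairs, or 15.3%, beside 9.81% of all pairs. By class, edgeR called 0.0549% of all genes in somatotrope-like, 0.231% in corticotrope-like, 0.00773% in melanotrope-like, 0% in stem-like and mesenchymal-like, 0.0407% in endothelial-like and 0.0297% in macrophage-like cells, and no receptor among them. DESeq2 called none of the pairs, beside 0.421% of all its pairs. Fitted differences were above 0 in 35 pairs and below 0 in 37. By receptor, Rxra was above 0 in all 10 of its tested classes, whereas Nr3c2 was below 0 in 8 of 9, Pgr in 6 of 7 and Esr1 in 6 of 8, classes that share the same libraries. The share of all genes with such counts was not computed. Some signs turned under other settings: Rxra in mesenchymal-like cells ran from -0.247 to 0.569 and Pgr in melanotrope-like cells from -0.0944 to 0.125.

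Over the whole gland no receptor passed in edgeR, where 0.0108% of 18500 genes passed; 3 receptors, Rxrg, Nr3c1 and Rxra, had an unadjusted p under 0.05, as did 9.72% of all genes. Rxrg had 42.1 and 37.3 CPM in HFD 1 and HFD 2, against 25.9 and 27.1 CPM in CTRL 1 and CTRL 2 (log2 difference 0.54, SE 0.07, adjusted p = 0.274). Nr3c1 had 122.4 and 112.1 CPM in HFD 1 and HFD 2, against 92.5 and 86.9 CPM in CTRL 1 and CTRL 2 (log2 difference 0.35, SE 0.08, adjusted p = 0.398). Both HFD libraries were higher for both, as for 26.6% of genes. DESeq2 called both, with adjusted p = 1.29e-04 for Rxrg and 0.0304 for Nr3c1, and 0.746% of all genes. A whole-gland sum also carries the mix of cells: somatotrope-like cells were 40.1% and 41.5% of the kept cells of HFD 1 and HFD 2, against 33.5% and 29.6% of those of CTRL 1 and CTRL 2. They supplied 87.3% and 82.9% of the Rxrg UMIs of HFD 1 and HFD 2, against 80.1% and 83.7% in CTRL 1 and CTRL 2.

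Whether the diet difference itself varied among classes was tested in 1 model with a term for each class, and none of the 9 receptors passed, where 0.139% of 16577 genes did. Vdr alone had an unadjusted p under 0.05 there (edgeR adjusted p = 0.445). Its HFD libraries lay on opposite sides of CTRL in its leading classes. They were above in lactotrope-like cells, as for 26.8% of genes there, and below in thyrotrope-like cells, as for 22.7%. Tested for that pair of classes, chosen after the values were seen, the log2 differences differed by 1.17 (SE 0.27, edgeR, adjusted p = 0.0586), where 0.531% of genes passed. Vdr between somatotrope-like and thyrotrope-like cells (0.482% of genes passed) and Esr1 between somatotrope-like and lactotrope-like (0.521%) or gonadotrope-like cells (0.347%) did not pass either.

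The other genes of these pathways were read from 8 lists, covering 82 genes beside the receptors, 74 of which were tested in at least 1 class. In all 12 of 590 pairs of a gene and a class passed, or 2.03%, with 3 higher and 9 lower in HFD, and DESeq2 called 15, beside 0.34% of all pairs by edgeR and 0.421% by DESeq2. The lists were chosen with earlier results of these data known, so these shares cannot show an excess over all genes. None of 6 other hormone and retinoid receptors, Esr2, Rxrb, Rara, Rarb and Rarg among them, passed in any class. Of these Rxrb, another retinoid X receptor, had in lactotrope-like cells 20 and 18.6 CPM in HFD 1 and HFD 2 and 18.5 and 22.7 CPM in CTRL 1 and CTRL 2. None of 14 coactivators and corepressors passed either. In gonadotrope-like cells, though, 8 of these 14 had an unadjusted p under 0.05 by edgeR, as did 20.7% of all genes there. Their median log2 difference in that class was -0.34, beside 0.004 over all genes. The corepressor Ncor1 led this list in lactotrope-like cells with 255.9 and 244.1 CPM in HFD 1 and HFD 2 and 235.1 and 216.8 CPM in CTRL 1 and CTRL 2, followed by the coactivator Ncoa7 with 83.7 and 78.5 CPM in HFD 1 and HFD 2 and 71.8 and 81.9 CPM in CTRL 1 and CTRL 2.

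Some estrogen and progesterone target genes fell in lactotrope-like cells in HFD. Of 10 tested genes of that list, Pgr and Fkbp5 included, 3 passed, all lower, beside 1.1% of all genes in the class, with a list median of -0.38 beside 0.00 over all genes. This list too was chosen with earlier results known, so its count and median describe the listed genes only. Greb1, an estrogen-induced cofactor of the estrogen receptor, had 32.5 and 33.8 CPM in HFD 1 and HFD 2, against 54 and 49.6 CPM in CTRL 1 and CTRL 2 (log2 difference -0.69, SE 0.11, adjusted p = 0.0148). Gal, the galanin gene and a strongly estrogen-induced neuropeptide of lactotropes, had 16.3 and 50.1 CPM in HFD 1 and HFD 2, against 98.7 and 181.9 CPM in CTRL 1 and CTRL 2 (log2 difference -2.11, SE 0.38, adjusted p = 0.0229). Myc, a growth-related transcription factor, had 1.39 and 1.43 CPM in HFD 1 and HFD 2, against 4.22 and 4.67 CPM in CTRL 1 and CTRL 2 (log2 difference -1.70, SE 0.28, adjusted p = 0.0149). The level of Myc was the lowest of these 3 genes, and its HFD sums rest on few UMIs. For each of the 3 both HFD libraries were below both CTRL libraries, as for 13.1% of genes in the class, and each lost its call without CTRL 2 (adjusted p = 0.0988 for Greb1, 0.397 for Gal and 0.241 for Myc) and without CTRL 1 (0.11 for each). By DESeq2 Gal did not pass (adjusted p = 0.505), and its log2 difference was -3.20 without HFD 2 and -1.49 without HFD 1. Gal leads a lactotrope-like cluster that held 216 of 1259 and 172 of 1142 lactotrope-like cells in HFD 1 and HFD 2 and 183 of 921 and 419 of 1799 in CTRL 1 and CTRL 2. In the Prl-led cluster Gal had 11.5 and 28.8 CPM in HFD 1 and 2, against 70.8 and 92.9 CPM in CTRL 1 and 2. In the Gal-led cluster it had 38.6 and 174.3 CPM in HFD 1 and 2, against 217.2 and 463.7 CPM in CTRL 1 and 2.

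In gonadotrope-like cells, where 1.17% of 12580 genes passed, target genes went both ways. Greb1 fell there too, to 7.52 and 10.3 CPM in HFD 1 and HFD 2, against 23 and 44.5 CPM in CTRL 1 and CTRL 2 (log2 difference -1.71, SE 0.31, adjusted p = 0.0384; DESeq2 gave no adjusted p for it). Lactotrope markers, RNA of a class where Greb1 is higher, summed to 1294 and 721 CPM in gonadotrope-like cells of HFD 1 and HFD 2, against 2923 and 4741 CPM in CTRL 1 and CTRL 2; their part in the Greb1 difference was not tested. Fos, an immediate-early gene that estrogen and many other signals induce, had 539.9 and 599 CPM in HFD 1 and HFD 2, against 1065 and 881.3 CPM in CTRL 1 and CTRL 2 (log2 difference -0.64, SE 0.09, adjusted p = 0.0216). The genes named for this class, Cga, Fos, Greb1, Hsp90aa1, Rdh10 and Thrsp, lost their calls without HFD 1 (adjusted p = 0.0649 to 0.203) or without HFD 2 (0.0543 to 0.202). Hsp90aa1, the inducible chaperone that holds steroid receptors ready for ligand, had a log2 difference of -0.50 (SE 0.09, adjusted p = 0.0366). By contrast 3 listed genes rose in gonadotrope-like cells of HFD mice. Thrsp, a thyroid hormone-responsive lipogenic gene, had 88.6 and 80.9 CPM in HFD 1 and HFD 2, against 60.7 and 40.7 CPM in CTRL 1 and CTRL 2 (log2 difference 0.86, SE 0.16, adjusted p = 0.042). Rdh10, which makes retinal from retinol, had 39.5 and 46.2 CPM in HFD 1 and HFD 2, against 29 and 25.3 CPM in CTRL 1 and CTRL 2 (log2 difference 0.79, SE 0.13, adjusted p = 0.0326). Cga, the common glycoprotein hormone alpha subunit, is one of the genes that name this class; it had a log2 difference of 0.49 (SE 0.07, adjusted p = 0.0212).

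In thyrotrope-like cells, where 0.466% of 11380 genes passed, 2 listed genes fell. Red blood cell markers summed to 7771 and 1319 CPM in this class in HFD 1 and HFD 2, against 50.9 and 29.3 CPM in CTRL 1 and CTRL 2; their part was not tested. Errfi1, a glucocorticoid-inducible inhibitor of growth factor receptors, had 29.8 and 28.5 CPM in HFD 1 and HFD 2, against 60 and 50.3 CPM in CTRL 1 and CTRL 2 (log2 difference -0.89, SE 0.16, adjusted p = 0.00869). Fos had 719.6 and 667.2 CPM in HFD 1 and HFD 2, against 1236 and 957.4 CPM in CTRL 1 and CTRL 2 (log2 difference -0.62, SE 0.13, adjusted p = 0.0219). Errfi1 did not pass by DESeq2 (adjusted p = 0.833), without CTRL 1 (0.055) or without HFD 2 (0.0502), and Fos did not without CTRL 1 (0.397). No gene of the retinoid and vitamin D target list passed in any class, but few of its 10 genes had counts enough to be tested. The filter on low counts left 3 of them in lactotrope-like and 2 in thyrotrope-like cells, and at most 7, in stem-like cells. Of that list Pou1f1, the lineage factor of somatotropes, lactotropes and thyrotropes, was the highest in lactotrope-like cells, at 705.1 and 548.5 CPM in HFD 1 and HFD 2 and 619.1 and 649.2 CPM in CTRL 1 and CTRL 2, and Rarb followed with 6.71 and 3.55 CPM in HFD 1 and HFD 2 and 3 and 3.18 CPM in CTRL 1 and CTRL 2.

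**Figure D4:**
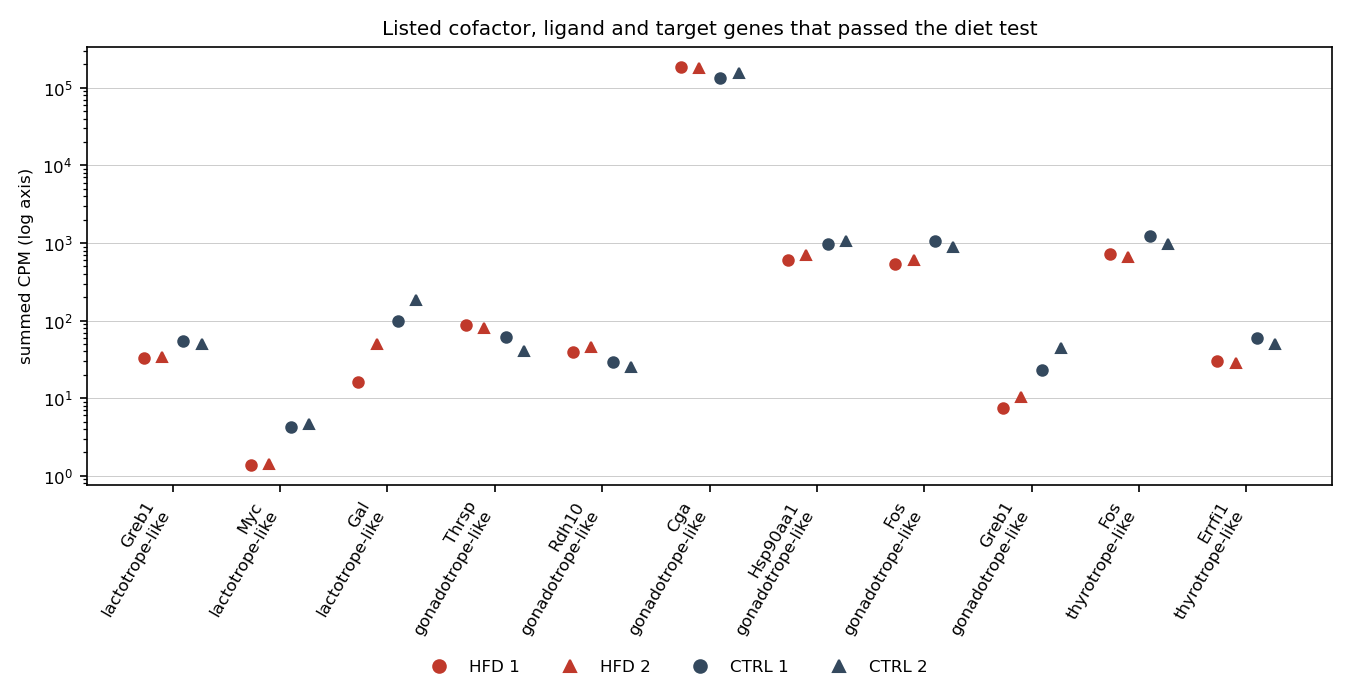
Summed CPM (vertical axis, log scale) of 11 of the 12 pairs of a listed gene and a class that passed the diet test; points are libraries, HFD left of CTRL. The HFD points of Greb1 in lactotrope-like cells sit at 32.5 and 33.8 CPM and the CTRL points at 54 and 49.6 CPM.

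Genes whose class means ran most like those of a receptor were ranked by Pearson's r of log2(CPM + 1) over the 10 class means, among 12611 genes with at least 10 CPM in a class; the points share libraries, and no p is given. The 3 nearest to Esr1 were Actn2 (r = 0.931), Greb1 (0.917) and Bcan (0.907), all highest in lactotrope-like cells. Those nearest to Vdr were C530044C16Rik (0.972), Thy1 (0.94) and Lrfn5 (0.938), all highest in thyrotrope-like cells. Those nearest to Rxrg were Ccdc192 (0.941), Tcerg1l (0.926) and Aldh1l1 (0.919), all highest in somatotrope-like cells. Nr3c1 was nearest to Tcf7l2 (0.899), Ceacam1 (0.865) and Zfp518a (0.864). None of these was highest in corticotrope-like cells, the leading class of Nr3c1: Tcf7l2 was highest in stem-like cells and the others in endothelial-like cells. Nr3c2 was nearest to Pik3ip1 (0.911), Crebrf (0.885) and Nek7 (0.882). Thra was nearest to Zfp445 (0.977), Med16 (0.955) and Cnot10 (0.952), and Thrb to Cdkn2b (0.903), Vps26b (0.897) and Wfdc2 (0.876). Rxra was nearest to Phc2 (0.949), Ets1 (0.937) and Calcrl (0.935), the last 2 known from endothelial cells, and Pgr to Ssbp1 (0.963), Arxes1 (0.951) and Ndfip1 (0.951).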

How the data were processed

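The authors deposited a filtered matrix of UMI counts per gene and cell barcode for each library, with barcode and gene lists; per the submitters' processing notes these rest on Cell Ranger 6.1.2, Seurat 4.3 and the mm10 genome, with settings and strand use not given in the sources used here. Values are whole counts, not normalized. From them, barcode copies shared between libraries with at least 3-fold fewer UMIs were removed, then barcodes under 500 genes or over 20% mitochondrial UMIs, then doublets (score from simulated doublets, 0.8% per 1000 cells). Cells were clustered without the receptors (scanpy 1.11.5; 2000 variable genes, 30 components, Leiden resolution 0.8) and named by markers; 3 clusters (498 cells) were left unnamed. A class needed 30 cells in every library to be tested. Counts were summed per class and library and tested HFD against CTRL, with 2 libraries each, in edgeR 4.0.16 (filterByExpr, TMM, quasi-likelihood F-test) over all genes, with Benjamini-Hochberg adjustment at 0.05; DESeq2 1.42.0 was an alternative. The scripts were tested on simulated data. CPM uses all UMIs of a class as denominator; thinned shares use cells with at least 2000 UMIs, drawn without replacement, which left out 242 and 209 cells of HFD 1 and HFD 2 and 141 and 279 of CTRL 1 and CTRL 2.

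The receptors and lists were chosen with earlier results of these data known. Log2 differences are given for each receptor in its 2 classes of highest mean CPM and wherever 1 passes; listed genes are named where they pass, otherwise those of highest mean CPM (at most 2), given here for the lactotrope-like class. Coordinates are GENCODE vM21 (GRCm38). Nothing in the labels ties equal replicate numbers to a shared animal or batch, so no block was used. Values of 2 listed genes are not reported here, though they stay in the counts over the lists.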

Additional observations from a re-analysis of the deposited data

Results flagged for a closer look

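Among the 3 classes of highest level of each receptor, there were 4 pairs of classes in which both HFD libraries lay above CTRL in 1 class and both lay below in the other. Both lay above for 44.6% of all genes tested in somatotrope-like and 26.8% in lactotrope-like cells. Both lay below for 13.1% in lactotrope-like, 40.2% in gonadotrope-like and 22.7% in thyrotrope-like cells. The share of all genes with opposite directions in a pair of classes was not computed. For Vdr the diet difference in lactotrope-like cells exceeded that in thyrotrope-like cells by 1.17 on the log2 scale (SE 0.27, edgeR, adjusted p = 0.0586; 0.531% of 13938 genes passed), and that in somatotrope-like cells exceeded it by 0.49 (SE 0.32, adjusted p = 0.831; 0.482% of 14723 genes passed). For Esr1 the difference in somatotrope-like cells exceeded that in lactotrope-like cells by 0.39 (SE 0.12, adjusted p = 0.213; 0.521% of 15172 genes passed) and that in gonadotrope-like cells by 0.46 (SE 0.16, adjusted p = 0.212; 0.347% of 15291 genes passed). None passed, and the pairs of classes were chosen after their values were seen.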

How the results depend on the processing

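Of the 90 receptor and class pairs 1 passed in the fit as reported, against 0 with DESeq2, 2 with no filter on low counts, 0 with stricter cells (at least 1000 genes, at most 10% mitochondrial UMIs) and 0 to 3 with 1 library left out; those 3, without CTRL 2, were Nr3c2 and Esr1 in corticotrope-like and Rxrg in thyrotrope-like cells, where that fit called 5.25% and 1.29% of all genes, against 0.231% and 0.466% with all libraries. With 1 library left out the share of all genes called ran from 0.0199% to 5.11% in somatotrope-like, 0.172% to 3.1% in lactotrope-like, 0.0229% to 5.25% in corticotrope-like and 0.149% to 4.99% in gonadotrope-like cells. In the whole gland 0 passed as reported, 2 with DESeq2 and 1, Rxrg, with no filter. With copies or doublets kept the counts did not change. The test between classes called 0 in every run. The highest class was the same for 9 of 9 receptors under each way of setting the level, copies kept included, and for 8 or 9 with 1 library left out. The class of the highest thinned share was that of the highest CPM for 8 receptors, against 6 with no thinning and 9 at 1000 UMIs.

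The deviations of libraries with equal replicate numbers correlated at r = -0.03 in the whole gland and at -0.18 to 0.37 in classes, highest in endothelial-like cells, where the block took the calls over all genes to 76, against 4 without it. With a replicate block 1 pair and 0 whole-gland receptors passed, and Vdr in lactotrope-like cells had a log2 difference of 0.89 (adjusted p = 0.0122). A crossed pairing, added because the correlation was under -0.1 in somatotrope-like cells, called 1 pair; over all genes it called 841 in somatotrope-like and 1135 in gonadotrope-like cells, against 8 and 147 without a block.

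Directions turned in 11 cases. Pgr in the melanotrope-like class had a log2 difference of 0.0086 by DESeq2, 0.0026 with doublets kept and -0.094 to 0.12 with 1 library left out. With 1 library left out the differences ran from -0.12 to 0.014 for Nr3c1 in corticotrope-like, -0.30 to 0.055 for Nr3c2 in somatotrope-like, -0.56 to 0.098 for Nr3c2 in corticotrope-like, -0.25 to 0.096 for Thra in stem-like, -0.079 to 0.14 for Thrb in lactotrope-like and -0.25 to 0.57 for Rxra in mesenchymal-like cells. Over 34 named differences and their 338 alternatives with an adjusted p, 289 kept direction and side, 7 passed newly, 31 no longer passed and 11 turned; the causes were not tested. The number of libraries, 2 for each diet, limits precision.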

Other observations

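Outside the tested classes, T or NK-like cells, 163 in all, held 235.9 and 259.8 CPM of Nr3c1 in HFD 1 and HFD 2 and 424.3 and 234.4 CPM in CTRL 1 and CTRL 2, from 36 to 52 UMIs in a library, and no UMI of Nr3c2 in any library. Pituicyte-like cells, 221 in all and also holding oligodendrocyte genes, held Thra at 162 and 189.5 CPM in HFD 1 and HFD 2 and 151.9 and 130 CPM in CTRL 1 and CTRL 2. Their Thrb was at 24.1 and 35.9 CPM in HFD 1 and HFD 2 and 26.2 and 22.5 CPM in CTRL 1 and CTRL 2. Pericyte-like cells, 122 in all, held Nr3c1 at 184.8 and 235.6 CPM in HFD 1 and HFD 2 and 179.2 and 209.6 CPM in CTRL 1 and CTRL 2. These classes had too few cells in a library to be tested.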
